A study of Homo sapiens with 12 samples.

Results

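The genes followed here are 45 genes of DNA replication that act in or just before S phase, the stage of the cell cycle in which the genome is copied. They were picked by name from a fixed list, and each of the 45 names matched 1 gene among the 60609 annotated genes of the deposited files. Their RNA was measured in NS-SV-AC cells, a line derived from acinar cells of human salivary gland and immortalised with SV40, by sequencing of polyadenylated RNA in 12 libraries. The level of a gene is given as TPM, an abundance that divides by transcript length and adds up to the same total in every library, summed over its transcripts. All 45 passed the filter for testing, 1 TPM or higher in 2 or more libraries, as did 17185 genes in all.

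There were 6 groups with 2 replicates each. Cells received DMSO (the solvent), 2-CM (2'-C-methyladenosine, a modified adenosine) or RES (the plant polyphenol resveratrol). They were transfected with poly I:C, which mimics viral double-stranded RNA, or with what the labels call depc, the mock control. The dose of 2-CM and RES is labelled 20 and was read as micromolar. Each compound was given 24 h before the transfection and again with it, poly I:C was left for 14 h, and all cultures were grown for 48 h. All groups share the immortalised line. As background, the large T antigen of SV40 binds the retinoblastoma family of pocket proteins and so frees the E2F transcription factors that drive many of the 45 genes, which limits the line as a model of how replication genes are switched on. The labels name no passage, batch or separate culture, so the p-values measure only the spread between these samples, which may be technical.

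As background, replication starts at origins that were licensed beforehand. The origin recognition complex (ORC), CDC6 and CDT1 load the ring of MCM2 to MCM7, the core of the replicative helicase, and geminin (GMNN) blocks CDT1 once S phase has begun. CDC45 and the GINS complex join the ring and MCM10 helps to start it. Replication protein A (RPA) coats the single strands, DNA polymerase alpha with its primase lays the primers, replication factor C (RFC) loads the sliding clamp PCNA, and DNA polymerases delta and epsilon extend the strands. Cyclin E with CDK2, and E2F factors, turn on this programme at the border of G1 and S phase. Epithelial lines that divide in culture express it steadily.

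The promoters of several members carry the letters that E2F factors bind. Searched were the words TTTCCCGC, TTTGGCGC, TTTCGCGC and TTTGCCGC, on both strands, in the 250 bases before each RefSeq gene start (GRCh38.p14). They occurred in 16 of the 38 members that the promoter table holds (42.1%) and in 3.4% of all genes in it, or 2.79% of its 35116 windows. The match is a description of letters and shows no binding. RPA2, MCM4, RPA3, GINS4, POLD3, MCM5 and CCNE2 were not in the table. Of the members called with poly I:C under DMSO or under 2-CM, 10 held the letters, and the 5 in which they lie outside annotated exons are shown, with the words in capitals and up to 40 bases on each side, read 5′ to 3′ on the strand of the gene. All 5 were called higher by limma with poly I:C under 2-CM, as were DUT and RFC3, which also hold the letters. The authors' deposited table did not call TYMS there (0.26). MCM7 and LIG1 hold the letters but fell under 2-CM, and POLE holds them and fell under DMSO. So the letters were found in members called in either direction.
PCNA, chr20:5126634-5126721, minus strand: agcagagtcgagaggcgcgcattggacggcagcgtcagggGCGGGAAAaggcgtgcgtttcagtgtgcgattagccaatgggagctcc
GMNN, chr6:24775293-24775380, plus strand: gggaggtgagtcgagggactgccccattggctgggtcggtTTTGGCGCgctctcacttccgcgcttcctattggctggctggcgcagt
POLA1, chrX:24693741-24693828, plus strand: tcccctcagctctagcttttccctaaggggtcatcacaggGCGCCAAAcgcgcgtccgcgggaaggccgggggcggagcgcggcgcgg
TYMS, chr18:657574-657652, plus strand: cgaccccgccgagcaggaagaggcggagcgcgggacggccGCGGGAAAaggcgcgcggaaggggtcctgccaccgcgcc
UHRF1, chr19:4909944-4910031, plus strand: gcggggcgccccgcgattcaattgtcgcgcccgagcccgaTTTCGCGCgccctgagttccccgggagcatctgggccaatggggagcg
The word starts 59 bases before the RefSeq start in PCNA, 80 in GMNN, 137 in POLA1, 39 in TYMS and 160 in UHRF1. In the annotation behind the TPM values GMNN begins earlier, at chr6:24774931, and so does UHRF1, at chr19:4903080. Their stretches thus lie inside the genes as measured, before a later start.

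Each library held 31.2 to 49.4 M reads, as estimated from the deposited coverage. Poly I:C left its mark in every transfected library: 12 interferon-induced genes summed to 113 to 223 TPM in the depc libraries and to 1699 to 2912 TPM in the poly I:C libraries, and all 12 were called higher under each compound. The labelled acinar type was not borne out by its markers. AQP5 and PRB1 were listed at 0 in every library, AMY1A, LPO and CHRM3 stayed at or under 0.0916 TPM, and BHLHA15 reached 2.69 TPM. The keratins KRT8 (630 to 1958 TPM) and KRT18 (466 to 1571 TPM) were abundant, EPCAM and CDH1 stayed at or under 1.23 TPM, and KRT7 at or under 2.16 TPM. Of 7 fibroblast markers 5 were expressed, COL1A1 at 15.9 to 100.3 TPM, COL3A1 at 14.2 to 60.1 TPM, LUM at 1.88 to 32.5 TPM, DCN at 0.584 to 18.03 TPM and PDGFRB at 4.199 to 11.01 TPM, and COL1A2 and PDGFRA stayed at or under 0.0813 TPM. The 7 summed to 129.5 to 143.7 TPM in DMSO depc, 51.1 to 85.1 in DMSO poly I:C, 147.2 to 157.0 in 2-CM depc, 149.1 to 158.5 in 2-CM poly I:C, 84.8 to 96.2 in RES depc and 50.9 to 70.9 in RES poly I:C. The sums were lower with poly I:C under DMSO and RES. Under 2-CM they overlapped, while single markers went opposite ways, LUM (log2 fold change 2.74) and DCN (1.87) called higher and COL1A1 (-1.14) called lower. The 5 epithelial markers, nearly all of it KRT8 and KRT18, summed to less with poly I:C under each compound, with 2302 to 2495 TPM against 1099.8 to 1733.5 under DMSO, 3213 to 3532 against 1392 to 1493 under 2-CM and 1683 to 2332 against 1099.5 to 1373.7 under RES. With depc the fibroblast sums were also lower under RES than under DMSO, and with poly I:C these 2 overlapped. The part of these shifts in the members' changes with poly I:C, or in their differences between RES and DMSO, was not tested.

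The 2 replicates of a group often differed more than the groups did, and the difference followed base composition. PCNA, for example, had 337 and 109 TPM in the replicates of DMSO poly I:C and 205 and 74.5 TPM in those of RES depc. In these and in the other groups most members with a low GC content of their exons moved apart together, and several members rich in GC moved the other way. Across the 45 members, the Spearman correlation of GC content with the difference of replicate 1 minus replicate 2 was -0.81 in DMSO depc, -0.91 in DMSO poly I:C, -0.59 in 2-CM depc, -0.64 in 2-CM poly I:C, -0.87 in RES depc and 0.90 in RES poly I:C. The points share their libraries, and the values are a description. Over all tested genes the same correlations ran from -0.78 to 0.77. The median log2(TPM + 1) of the 15 members with the lowest GC content, minus that of the 15 with the highest, was -0.04 and -0.16 in the 2 libraries of 2-CM poly I:C and -0.05 in replicate 2 of RES poly I:C, against -0.73 to -2.84 in the other 9 libraries. Both libraries of 2-CM poly I:C thus stood at 1 end of this axis, and both of 2-CM depc, at -2.18 and -2.84, near the other.

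**Figure D1:**
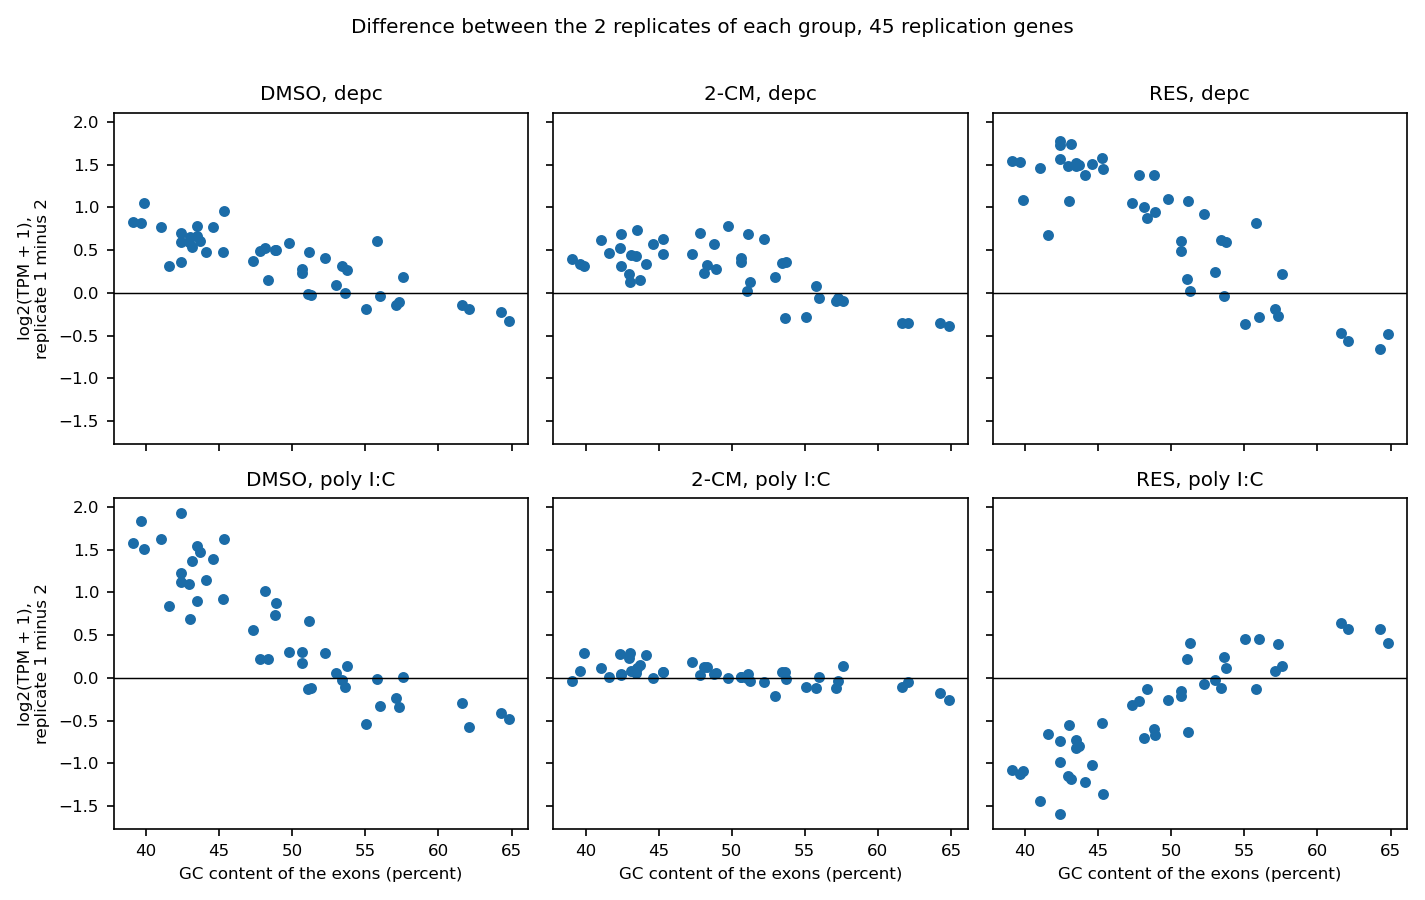
Difference in log2(TPM + 1) between replicate 1 and replicate 2 of each group (y axis) against the GC content of the gene's exons in percent (x axis), 1 point for each of the 45 members. The cloud falls from left to right in 5 groups and rises in RES poly I:C, and the spread is smallest in 2-CM poly I:C.

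TK1, the thymidine kinase that salvages thymidine, was the most abundant member by its median over the libraries (270.4 to 902 TPM), followed by the helicase subunits MCM7 (287 to 551 TPM) and MCM4 (112 to 375 TPM). CCNE2, 1 of the genes for cyclin E, was the lowest (0.296 to 6.84 TPM). The other cyclin E gene, CCNE1, lay at 14.1 to 28.0 TPM. GINS2, a subunit of the GINS complex, was the steadiest, at 46.8 to 64.5 TPM, a 1.38-fold range over 12 libraries. RFC2, a subunit of the clamp loader, followed with a 1.57-fold range. PCNA spanned 7.495-fold, PRIM1 (the small primase subunit) 7.56-fold and CCNE2 23.1-fold. The 45 genes together took 0.293% to 0.467% of all TPM. Their sum was 3471 ± 212 TPM (SD, n = 2) in DMSO depc, 3302 ± 521 in DMSO poly I:C, 3538 ± 50.6 in 2-CM depc, 4481 ± 64.04 in 2-CM poly I:C, 4260.1 ± 577 in RES depc and 4087 ± 414 in RES poly I:C. Of the 3 poly I:C comparisons, both poly I:C libraries lay above both depc libraries only under 2-CM. In bulk RNA, a lower share of cells in S phase and less RNA of these genes per cell cannot be told apart. Exons of 22 members overlap exons of another gene, and the counting is not stated to use strand, so their values may include reads of the neighbour.

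**Figure D2:**
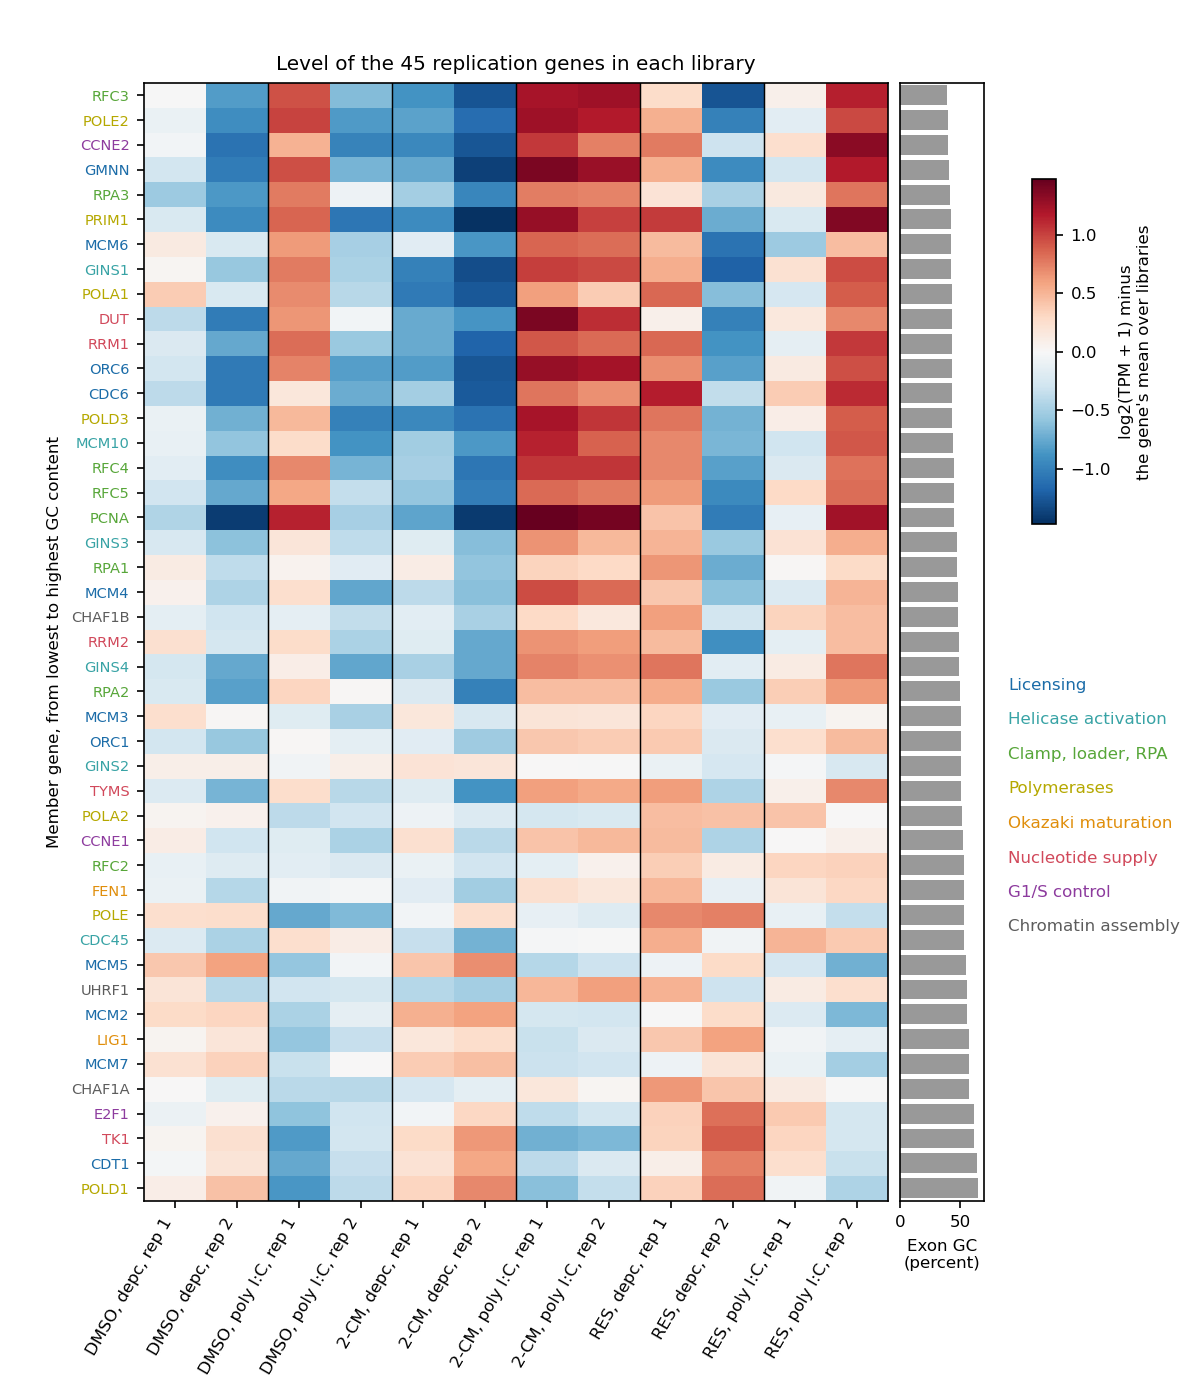
Heat map of log2(TPM + 1) minus the gene's own mean over the 12 libraries (colour), with members as rows from the lowest to the highest exon GC content (grey bars, percent) and libraries as columns. Most members of low GC content share 1 pattern over the libraries, high in both 2-CM poly I:C libraries and in replicate 2 of RES poly I:C. Several members of high GC content, such as TK1 and MCM5, mirror it. Others do not, and UHRF1 and CCNE1 are also high in both 2-CM poly I:C libraries. Most members of low GC content are also raised in replicate 1 of DMSO poly I:C and in replicate 1 of RES depc, a mock control.

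Poly I:C under DMSO changed 1 of the 45 members, against 4.08% of all tested genes. POLE, the catalytic subunit of polymerase epsilon that copies the leading strand, had 45.7 and 45.8 TPM with depc and 22.2 and 24.0 TPM with poly I:C. Both poly I:C values lay under both depc values, and POLE fell (log2 fold change -0.96, SE 0.18, adjusted p = 0.0296, limma). No member was called higher, against 0.797% of all genes, and 3.28% of all genes were called lower. At an unadjusted p under 0.05 there were 9 members (19.7% of all genes, near the members' share), and limma voom on estimated reads called 0. The members' median log2 fold change was 0.11 and that of all genes -0.14. After correction of each library for gene GC content, 5 members were called (7.05% of all genes higher and 8.68% lower): POLE lower (-0.73 with adjusted p = 0.00734), and RPA3, DUT, CDC45 and ORC1 higher. DUT, which removes dUTP from the nucleotide pool, had 32.9 and 20.6 TPM with depc and 68.4 and 42.2 TPM with poly I:C, and its uncorrected estimate was 1.02 with adjusted p = 0.2. The call for POLE was lost without any 1 of the 8 libraries given DMSO or 2-CM, where the adjusted p reached 0.24, with log2 fold changes of -1.01 to -0.90.

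Under 2-CM, poly I:C changed 29 members, 23 higher and 6 lower, where 49.3% of all genes were called, 37.5% higher and 11.8% lower. The members' median log2 fold change was 1.06 and that of all genes 0.61. Both libraries of poly I:C lay above both of depc for 33 members (62.6% of all genes) and below for 11 (23.9% of all genes). The higher members had GC contents of 39.1% to 55.8% and the lower ones of 55.1% to 64.8%, and across all 45 the Spearman correlation of GC content with the log2 fold change was -0.90 (-0.80 over all genes). After GC correction 17 members were called, 11 higher (14.3% of all genes) and 6 lower (15.7% of all genes). With scaling by the median of ratios, which moved the median of all genes from 0.61 to 0.02, 21 members were called, 10 higher (19.9% of all genes) and 11 lower (23.8% of all genes). Without the filter at 1 TPM, 40364 genes were tested and limma called 0 members (1.61% of all genes), with 33 at an unadjusted p under 0.05 (31.9% of all genes), and the adjusted p of the 29 ran from 0.0533 to 0.12. The calls by role are those of the filtered fit. The counts without 1 library, given next, stand without a share of all genes, so whether all genes lose calls alike is not shown. Leaving out any 1 of the 4 libraries compared left 0 called members by limma, and leaving out any other library left 20 to 36.

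**Figure D3:**
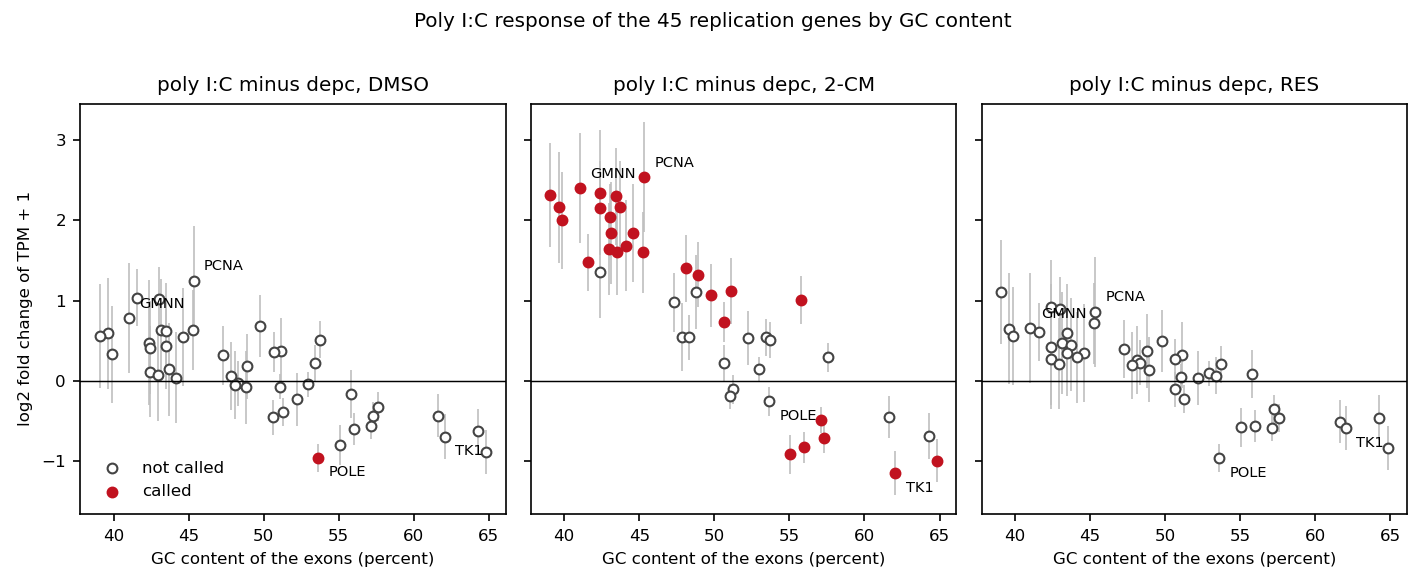
Log2 fold change of TPM + 1 with poly I:C against depc (y axis) by exon GC content in percent (x axis) under DMSO, 2-CM and RES, 1 point per member with its SE and filled where called. The slope from upper left to lower right is present under all 3 compounds and steepest under 2-CM, where PCNA reached 2.54 and TK1 -1.15.

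Among the licensing factors under 2-CM, 5 of 11 were called higher and 3 lower, where 37.5% and 11.8% of all genes were. GMNN, the inhibitor of CDT1, had 24.9 and 15.9 TPM with depc and 114 and 105 TPM with poly I:C (log2 fold change 2.40, SE 0.68, adjusted p = 0.0301). ORC6, a subunit of the origin recognition complex, had 28.1 and 20.6 TPM with depc and 125 and 119.6 TPM with poly I:C (log2 fold change 2.30, SE 0.61, adjusted p = 0.0281). The groups did not overlap for either gene. ORC1, CDC6 and MCM4 also rose, with log2 fold changes of 0.73, 1.61 and 1.40, and ORC1 turned to -0.09 with scaling by the median of ratios. The helicase subunits did not move as a unit. MCM5 had 145 and 176 TPM with depc and 81.2 and 87.8 TPM with poly I:C (log2 fold change -0.91, SE 0.24, adjusted p = 0.0284). MCM2 had 214 and 224 TPM with depc and 123 and 123 TPM with poly I:C (log2 fold change -0.83, SE 0.20, adjusted p = 0.0274). MCM7, whose exons overlap AP4M1 on the other strand, had 527 and 551 TPM with depc and 324 and 333 TPM with poly I:C (log2 fold change -0.71, SE 0.18, adjusted p = 0.0278). All 3 fell while MCM4 rose, and MCM3 (0.22, adjusted p = 0.404) and MCM6 (1.35, adjusted p = 0.0716) did not pass. The 3 subunits that fell have exon GC contents of 55.1% to 57.3%, and MCM6, MCM4 and MCM3 of 42.4% to 50.6%. CDT1 had 155 and 199 TPM with depc and 102.0 and 116 TPM with poly I:C and did not pass (-0.69, adjusted p = 0.069).

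Of the clamp, its loader and RPA, limma called 6 of 8 higher and none lower, where 37.5% and 11.8% of all genes were. The roles were not tested against each other. In the authors' deposited table RFC2 was called lower (-0.74) and RPA2 was not called (0.18). PCNA, the sliding clamp (chr20:5114953-5126626), had 88.7 and 57.02 TPM with depc and 427 and 408 TPM with poly I:C (log2 fold change 2.54, SE 0.68, adjusted p = 0.0288), the largest rise of all members. After GC correction its log2 fold change was 1.496 with adjusted p = 0.0227. RFC3, a subunit of the clamp loader, had 10.99 and 8.1 TPM with depc and 50.2 and 51.5 TPM with poly I:C (log2 fold change 2.31, SE 0.65, adjusted p = 0.0296). RFC4, RFC5, RPA3 and RPA2 rose by 1.84, 1.60, 1.48 and 1.06 on the log2 scale. RPA3 was at -0.03 after GC correction. RFC2, whose exons are richer in GC at 53.0%, stayed at 0.15 (adjusted p = 0.432), and RPA1 did not pass either (0.55, adjusted p = 0.282). Of the genes that start the helicase, GINS1 (2.16), MCM10 (1.68) and GINS4 (1.32) rose on the log2 scale. GINS2 had 64.5 and 63.6 TPM with depc and 56.1 and 55.9 TPM with poly I:C, a log2 fold change of -0.19 that did not pass, and after GC correction it was called lower at -0.54 with adjusted p = 0.0248.

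Among the polymerases, PRIM1, the primase subunit that makes the RNA primer, had 19.8 and 13.5 TPM with depc and 96.1 and 78.9 TPM with poly I:C (log2 fold change 2.34, SE 0.78, adjusted p = 0.038). POLE2, POLD3 and POLA1, subunits of polymerases epsilon, delta and alpha, rose by 2.16, 2.16 and 1.64 on the log2 scale. POLD1, the catalytic subunit of polymerase delta, went the other way with 93.4 and 123 TPM with depc and 48.6 and 58.5 TPM with poly I:C (log2 fold change -0.99, SE 0.27, adjusted p = 0.029). POLE, which had fallen under DMSO, had 37.0 and 45.7 TPM with depc and 35.1 and 33.4 TPM with poly I:C. It did not pass in limma (log2 fold change -0.26, SE 0.18, adjusted p = 0.232), but the authors' deposited table called it lower (-1.20). Subunits of polymerase delta were called in opposite directions: POLD3 higher and POLD1 lower. Their exon GC contents are 43.7% and 64.8%, the latter the highest of all members. In Okazaki fragment maturation, LIG1, the ligase that seals the fragments, fell from 78.7 and 84.4 TPM to 55.5 and 60.4 TPM (log2 fold change -0.49, SE 0.16, adjusted p = 0.0385), and FEN1, the flap nuclease, did not pass (0.54, adjusted p = 0.071).

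In nucleotide supply, TK1 had 592 and 754 TPM with depc and 295 and 306 TPM with poly I:C (log2 fold change -1.15, SE 0.28, adjusted p = 0.0274), the largest fall of all members, and it was still called lower after GC correction (-0.63 with adjusted p = 0.0185). DUT had 25.5 and 23.2 TPM with depc and 115 and 93.5 TPM with poly I:C (log2 fold change 2.05, SE 0.40, adjusted p = 0.0247), and after GC correction 0.70 with adjusted p = 0.00832. RRM1, the large subunit of ribonucleotide reductase, and TYMS, which makes thymidylate, rose by 1.84 and 1.12 on the log2 scale. In the authors' deposited table TYMS was not called (0.26). The small subunit of the reductase, RRM2, did not pass in limma (1.10, adjusted p = 0.0695). In G1/S control, CCNE2 rose from 0.61 and 0.296 TPM to 5.4 and 4.22 TPM (log2 fold change 2.00, SE 0.61, adjusted p = 0.0324), while CCNE1 (0.53) and E2F1 (-0.45) did not pass. In chromatin assembly, UHRF1, which brings the maintenance methyltransferase to new DNA, was called higher (log2 fold change 1.01, SE 0.30, adjusted p = 0.0314). CHAF1A and CHAF1B of the histone chaperone CAF-1 did not pass.

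The authors' deposited table for 2-CM, whose fold changes are on its own scale, called 21 members higher and 14 lower at an adjusted p under 0.05, where it called 46.4% of all genes, 23.0% higher and 23.5% lower. The 26 members called in both had the same sign. RFC2, MCM3 and CHAF1A were called lower there, at -0.74, -0.64 and -0.55. Their limma estimates were above 0, at 0.15, 0.22 and 0.29, and did not pass. CDT1, E2F1, POLE, GINS2 and POLA2 did not pass in limma either. In the authors' deposited table they were called lower, at -1.56, -1.32, -1.20, -1.05 and -1.04. MCM6, also not called by limma, was called higher there (0.50). ORC1, called higher by limma at 0.73, stood there at -0.09 and was not called. In the authors' deposited table PCNA stood at 1.68 (log2), GMNN at 1.55, TK1 at -2.01 and POLD1 at -1.99. RPA2, TYMS and CDC45 stood there at 0.18, 0.26 and -0.34, and none of them was called. The members' median in it was 0.26, against 1.06 in the limma fit. The authors' deposited tables for DMSO and RES called 0 members, and 1.25% and 0.363% of all genes.

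Under RES, limma called 0 members with poly I:C, against 0.442% of all genes, with 6 members at an unadjusted p under 0.05 (14% of all genes) and 0 called by limma voom. POLE had 63.1 and 64.8 TPM with depc and 35.4 and 29.7 TPM with poly I:C, and both values fell below both depc values (log2 fold change -0.96, SE 0.18, adjusted p = 0.0659). Its estimate was the same as under DMSO, -0.96. After GC correction POLE was called lower (-0.74 with adjusted p = 0.0194) and DUT higher (0.67 with adjusted p = 0.0263), where 1.33% of all genes were called higher and 1.83% lower. The replicates of RES poly I:C differed widely for the members of low GC content. PCNA had 205 and 74.5 TPM with depc and 140.5 and 362 TPM with poly I:C, and GMNN had 62.2 and 21.97 TPM with depc and 35.4 and 97.7 TPM with poly I:C, so the groups overlapped for both genes. The members' median log2 fold change was 0.25 and that of all genes -0.03.

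Averaged over the 3 compounds, poly I:C changed 20 members, 11 higher and 9 lower, where 31.2% of all genes were called, 13.4% higher and 17.8% lower. The split between higher and lower changed with FPKM, voom and the median of ratios, as given in the section on processing. Without the filter at 1 TPM there were 9 calls, 2 higher (2.44% of all genes) and 7 lower (6.7% of all genes), and leaving out 1 library gave from 9, for example without either library of 2-CM poly I:C, to 39, without replicate 1 of RES depc. No share of all genes stands beside the counts without 1 library. The members' median log2 fold change was 0.53 and that of all genes 0.16. The Spearman correlation of GC content with the log2 fold change was -0.89 over the members and -0.73 over all genes. Under DMSO it was -0.76 and -0.36, and under RES -0.86 and -0.62. In all, 8 members were called under each of the 7 other settings tried and without each of the 12 libraries in turn: POLE, POLD1, MCM5, MCM2, TK1 and LIG1 lower, and DUT and RPA3 higher. How many of all genes passed in the same way was not counted, so the 8 cannot be set against a share of all genes. POLE, named above, had 45.7, 45.8, 37.0, 45.7, 63.1 and 64.8 TPM in the 6 depc libraries (DMSO, 2-CM and RES in turn) and 22.2, 24.0, 35.1, 33.4, 35.4 and 29.7 TPM in the 6 poly I:C libraries. Each of the latter was under each of the former, and POLE fell by 0.72 on the log2 scale (SE 0.10, adjusted p = 0.00274). POLD1, the catalytic subunit of polymerase delta, had 80.4, 101.2, 93.4, 123, 94.9 and 133 TPM in the 6 depc libraries (DMSO, 2-CM and RES in turn) and 40.8, 57.3, 48.6, 58.5, 72.3 and 54.2 TPM in the 6 poly I:C libraries. Again no poly I:C value reached a depc value (log2 fold change -0.90, SE 0.16, adjusted p = 0.0054). MCM2, a subunit of the helicase ring, had 180.4, 185, 214, 224, 148 and 179 TPM in the 6 depc libraries (DMSO, 2-CM and RES in turn) and 107, 135, 123, 123, 129 and 93.5 TPM in the 6 poly I:C libraries. The lowest depc value was above the highest poly I:C value (log2 fold change -0.66, SE 0.11, adjusted p = 0.0052). LIG1 was the fourth member whose 6 poly I:C libraries all lay under its 6 depc libraries (log2 fold change -0.55, SE 0.09, adjusted p = 0.00538), a separation that 6.34% of all genes showed. No member had all 6 above, as 1.33% of all genes did. Of the 8 named, the 6 lower ones have exon GC contents of 53.6% to 64.8%. RPA3 and DUT, the 2 higher ones, have 41.6% and 43.0%.

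For MCM5 and TK1 the libraries overlapped when compounds were mixed, as levels under RES differed from the others. TK1, the thymidine kinase, had 500.0, 571, 592, 754, 608 and 902 TPM in the 6 depc libraries (DMSO, 2-CM and RES in turn) and 270.4, 403, 295, 306, 602 and 404 TPM in the 6 poly I:C libraries. Within each compound both poly I:C values were below both depc values (log2 fold change -0.81, SE 0.16, adjusted p = 0.00856). MCM5, for which this also held, fell by 0.76 on the log2 scale (SE 0.14, adjusted p = 0.00658). DUT, which keeps uracil out of DNA, had 32.9, 20.6, 25.5, 23.2, 45.8 and 21.2 TPM in the 6 depc libraries (DMSO, 2-CM and RES in turn) and 68.4, 42.2, 115, 93.5, 48.3 and 71.3 TPM in the 6 poly I:C libraries. DUT rose (log2 fold change 1.32, SE 0.23, adjusted p = 0.00575) and RPA3, the smallest RPA subunit, did so as well (log2 fold change 1.04, SE 0.21, adjusted p = 0.00849). RPA3 shares exon sequence with UMAD1 on the other strand, and DUT with an antisense RNA. Among the members that fell, MCM2 and LIG1 overlap a gene on the other strand and POLD1 one on the same strand. GC correction was 1 of the settings by which the 8 were picked, so their calls in it are no further check. With it, the log2 fold change was -0.59 for POLE, -0.54 for MCM5, -0.39 for MCM2 and -0.38 for POLD1. It was -0.32 for TK1, -0.22 for LIG1, 0.43 for RPA3 and 0.78 for DUT. GC correction brought 26 members past the threshold, 20 higher (18.1% of all genes) and 6 lower (19.2% of all genes), with PCNA at 1.16 with adjusted p = 0.00439. Of the other members called without it, PCNA, GMNN, RFC3, ORC6, GINS1, RFC5, RPA2, ORC1 and CDC45 were higher and MCM7, CDT1 and E2F1 lower, and MCM7 alone of these was also called without each library in turn. E2F1 turned to 0.02 after GC correction.

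The response to poly I:C under 2-CM or RES was not shown to differ from that under DMSO for any member, and 2-CM and RES were not tested against each other. For 2-CM minus DMSO, limma and limma voom called 0 members (0.0116% of all genes in limma), with 5 members at an unadjusted p under 0.05 (29.7% of all genes) and a smallest adjusted p of 0.161. For RES minus DMSO both called 0 members (0% of all genes in limma), with 0 at an unadjusted p under 0.05 (1.7% of all genes). The calls under 2-CM alone are therefore not shown to be particular to 2-CM. For POLE the limma estimates were -0.96 under DMSO, -0.26 under 2-CM and -0.96 under RES. The difference between 2-CM and DMSO was 0.70 (SE 0.25, adjusted p = 0.161, limma). In the authors' deposited tables POLE stood at -0.74 under DMSO, -1.20 under 2-CM and -0.93 under RES, and was called lower only under 2-CM. The order of the compounds was thus not the same in the 2 analyses. For PCNA the limma difference between 2-CM and DMSO was 1.29 (SE 0.97), within the spread of its replicates.

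2-CM against DMSO gave no called member. With depc, limma and limma voom called 0 members (limma called 0.0349% of all genes), with 0 at an unadjusted p under 0.05 (4.84% of all genes), and the members' median log2 difference was -0.15 (-0.12 over all genes). With poly I:C both called 0 (0.105% of all genes in limma), 10 members had an unadjusted p under 0.05 (34.2% of all genes), and both 2-CM libraries lay above both DMSO libraries for 34 of the 45 (70.4% of all genes). PCNA had 337 and 109 TPM in DMSO poly I:C and 427 and 408 TPM in 2-CM poly I:C. The GC content of the members correlated with the 2-CM minus DMSO difference at 0.76 (Spearman) with depc and at -0.72 with poly I:C. Over all genes the values were 0.71 and -0.61. In the average over both transfections, a comparison added after the data were seen, limma and limma voom called 0 (0.0815% of all genes in limma), with 0 at an unadjusted p under 0.05 (12.9% of all genes).

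RES against DMSO gave estimates above 0 for most members, few of which passed the test. The differences had little relation to GC content (Spearman -0.08 with depc and -0.03 with poly I:C over the members, 0.13 and -0.14 over all genes). With depc limma called 0 members (1.03% of all genes), with 5 at an unadjusted p under 0.05 (14.7% of all genes). With poly I:C it called 0 (0.157% of all genes), again with 5 (13.4% of all genes), and limma voom called 0 in both. Averaged over both transfections, a comparison added after the data were seen, 2 members were called higher and none lower, where 7.91% of all genes were called, 6.62% higher and 1.29% lower. The estimates were above 0 for 40 of 45 members, and above the median of all genes (0.21) for 33, with a median of 0.39. CHAF1A, a subunit of the histone chaperone CAF-1, had 29.5, 25.7, 21.9 and 21.8 TPM in the DMSO libraries (depc, then poly I:C) and 46.0, 39.3, 32.2 and 29.2 TPM in the RES libraries (log2 fold change 0.54, SE 0.12, adjusted p = 0.0344). RES lay above DMSO within each transfection, and the 2 sets overlapped only across transfections. RFC2 had 159, 149.9, 153 and 147 TPM with DMSO and 220.5, 186, 214 and 217 TPM with RES, with no overlap (log2 fold change 0.45, SE 0.11, adjusted p = 0.0397). It was the only member with all 4 RES libraries above all 4 DMSO libraries, as 8.38% of all genes were. Both calls were lost with FPKM, with scaling by the median of ratios, with voom, with GC correction (adjusted p = 0.0619 for each) and in a fit of only the groups compared, and each held without only 1 of the 12 libraries. The log2 fold change of CHAF1A fell to 0.27 with the median of ratios and to 0.32 with GC correction, and that of RFC2 to 0.18 and 0.24.

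CDC6, which loads the helicase, had the largest estimate of all members, with 29.5, 18.3, 43.7 and 23.0 TPM in the DMSO libraries and 87.5, 29.9, 50.5 and 84.3 TPM in the RES libraries, and did not pass (log2 fold change 1.06, SE 0.38, adjusted p = 0.13). After GC correction it was called (0.85 with adjusted p = 0.00419), as were CCNE2, GINS4, E2F1 and CHAF1B higher and MCM5, GINS2, MCM7 and MCM2 lower, 9 members in all, where 10.5% of all genes were called higher and 10.8% lower. POLE had 45.7, 45.8, 22.2 and 24.0 TPM with DMSO and 63.1, 64.8, 35.4 and 29.7 TPM with RES (log2 fold change 0.47, SE 0.12, adjusted p = 0.0528). POLA2, the second subunit of polymerase alpha, had an almost equal estimate (log2 fold change 0.47, SE 0.12, adjusted p = 0.0529). Both fell just short of the threshold.

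Several genes of mitosis, the stage in which the copied genome is divided, were called lower with RES. Of 20 listed and tested mitosis genes, 4 were called lower in the average and none higher, against 1.29% and 6.62% of all genes, 17 of the 20 estimates were below 0, and their median was -0.37. PLK1, the kinase that drives entry into and passage through mitosis, had 117, 115, 66.6 and 79.9 TPM with DMSO and 25.8, 30.02, 25.1 and 16.6 TPM with RES (log2 fold change -1.90, SE 0.15, adjusted p = 0.00144). CDC20, an activator of the anaphase-promoting complex, had 426, 459.9, 276 and 368 TPM with DMSO and 129.9, 155, 135 and 92.8 TPM with RES (log2 fold change -1.57, SE 0.15, adjusted p = 0.00265). All 4 RES libraries lay under all 4 DMSO libraries for both genes, and no share of all genes is given for this separation. KIF20A and UBE2C were the other calls, at -1.38 and -0.85. PLK1 and CDC20 were also called lower in each transfection alone. The 2 lists share their libraries, and the difference between them was not tested. Unlike those of the members, the calls of the mitosis genes and of the other lists were not recomputed under other settings.

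**Figure D4:**
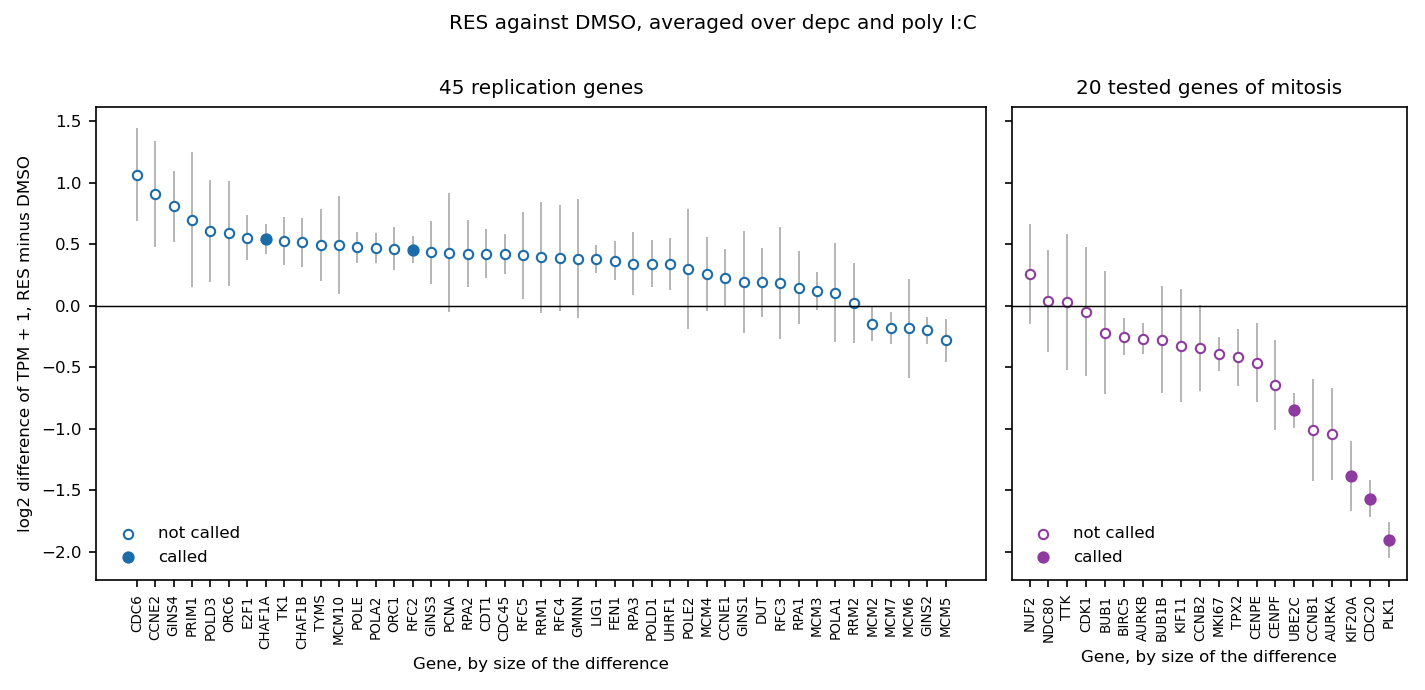
Log2 difference of TPM + 1, RES minus DMSO averaged over depc and poly I:C (y axis), with its SE, for the 45 members and the 20 mitosis genes in order of size, filled where called. Most members sit between 0 and 1, with CHAF1A and RFC2 called, while PLK1 reaches -1.90 and CDC20 -1.57.

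A further 36 replication genes outside the 45 were tested as a list. With poly I:C under 2-CM, 25 rose and 4 fell (37.5% and 11.8% of all genes), with a median of 1.92 (0.61 over all genes), and DBF4 (the partner of the kinase CDC7), TOP2A (topoisomerase II alpha) and ORC4 led at 2.74, 2.53 and 2.45. Their exon GC contents are low, 37.1% to 38.8%, the end of the GC axis at which genes were higher in this comparison. Under DMSO 1 of the 36 was called (4.08% of all genes), CDK2, the kinase that cyclin E activates, with 51.3 and 36.1 TPM with depc and 97.9 and 84.6 TPM with poly I:C (log2 fold change 1.06, SE 0.24, adjusted p = 0.0477), and under RES none (0.442% of all genes by limma, and an unadjusted count of 4). In the average 6 rose and 6 fell, where 13.4% and 17.8% of all genes did, near the shares of the list, among them POLD4, a small subunit of polymerase delta, at -0.81. With RES against DMSO averaged over both transfections, 1 of the 36 was called, where 7.91% of all genes were. TIMELESS of the fork protection complex was this call, with 58.0, 56.9, 39.4 and 37.3 TPM under DMSO and 89.1, 75.0, 62.9 and 59.2 TPM under RES (log2 fold change 0.58, SE 0.11, adjusted p = 0.0181). Of 20 mitosis genes, 11 rose and 2 fell with poly I:C under 2-CM (median 1.38), against the same 37.5% and 11.8%. MKI67, the proliferation marker, was the 1 call of the 20 under DMSO (-1.13) and under RES (-1.18), both lower, where 4.08% and 0.442% of all genes were called. Of 14 CDK inhibitors and pocket proteins with their partners, 8 rose and none fell under 2-CM (median 1.08), against 37.5% and 11.8% of all genes. CDKN1B (2.28) and RB1 (2.17) led, with exon GC contents of 46.0% and 37.0%. None was called under DMSO or RES alone (4.08% and 0.442% of all genes). There, 4 and 0 had an unadjusted p under 0.05 (19.7% and 14% of all genes).

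The members' transcripts were then examined one by one, after the gene values were seen. Shares of transcripts within a gene were unstable: the main transcript of UHRF1 took 2.7% to 92.8% of the gene's TPM over the 12 libraries, and that of PRIM1 25.5% to 91%. A transcript of TYMS, thymidylate synthase (ENST00000323224.7, chr18:657653-673578), was singled out for its values under RES, which are therefore a description with no test. It was listed at 0 TPM in all 8 DMSO and 2-CM libraries, and at 42.5 and 22.2 TPM in RES depc and 14.2 and 37.6 TPM in RES poly I:C. These are 17.3%, 19.1%, 8.41% and 14.3% of the gene's TPM.

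This transcript lacks exon 4 of the 7 exons of the main TYMS transcript (ENST00000323274.15), a coding exon of 102 bases, shown because it is what tells the 2 transcripts apart inside the gene. Its sequence on GRCh38 is in lower case throughout, plus strand.
TYMS exon 4, chr18:669072-669173: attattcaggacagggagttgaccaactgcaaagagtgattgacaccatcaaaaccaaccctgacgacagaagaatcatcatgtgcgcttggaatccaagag
The coverage of the exon itself did not fall by the share given to that transcript. Summed over the transcripts that hold it, exon 4 had 99.2%, 103%, 106% and 99.3% of the mean coverage of exons 3 and 5 in the 4 RES libraries, against 102% to 107% in the 8 others. So the transcript values separate RES from the other libraries, and the exon coverage, from the same files, does so at most by a few percent, with overlap. Whether the exon is skipped more often with RES is not shown by these files. TYMS exons also overlap ENOSF1 and TYMSOS on the other strand.

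**Figure D5:**
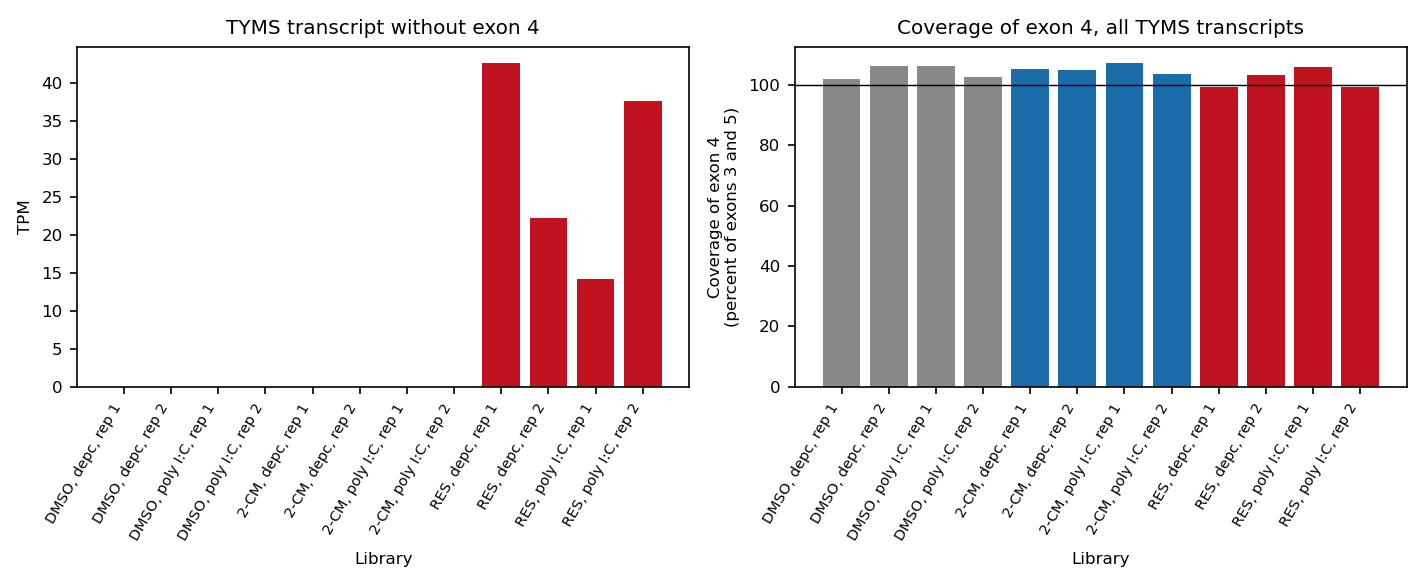
Left, TPM of the TYMS transcript without exon 4 in each library. Right, deposited coverage of exon 4 in percent of the mean of exons 3 and 5. The transcript is above 0 only in the 4 RES libraries (14.2 to 42.5 TPM), while the exon stays between 99.2% and 107% in all 12.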

How the data were processed

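Polyadenylated RNA of 12 libraries was prepared with a stranded kit and read in pairs, per the labels' protocols. The authors used StringTie 2.0.4, per the file headers, limited to the transcripts of GENCODE 32, with no strand option, which gave a coverage, an FPKM and a TPM for each of 227462 transcripts. HISAT2 2.1.0, bcl2fastq 2.20, DESeq2 and the build hg38 are named in the submitters' processing notes, with no role. The authors' deposited tables give, for poly I:C against depc, a log2 fold change, its standard error and an adjusted p-value.

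Gene TPM is the sum over transcripts (Python 3.11.15). A model of 6 group means was fitted with limma 3.58.1 (R 4.3.3) to log2(TPM + 1), with variances moderated along abundance. It covered the 17185 genes that reached 1 TPM in 2 or more libraries and left 6 residual degrees of freedom. Called means an adjusted p (Benjamini-Hochberg, over all tested genes of a contrast) under 0.05. Adjusted p-values not credited to the authors are from limma. Fold changes on this scale understate the change of low genes. Reads per library were estimated as coverage times length over read length, and voom was run on them. GC content is that of a gene's merged exons on hg38, and the GC correction removed a loess trend per library. The replicate numbers were not used as pairs. The procedure was tested on simulated data with known changes.

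The members, gene lists and contrasts were chosen with earlier results of these data known. By the rule for named genes, any of the 45 could be named by role, with full statistics for up to 5 called members per contrast and direction, up to 3 called genes of the 36 other replication genes, and up to 2 of the mitosis and CDK lists. The markers PTPRC, CD3E, KRT5, KRT19, MUC7, STATH, HTN3, AMY1B and AMY1C were not analysed here. A named gene of the further replication list is not reported here.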

Additional observations from a re-analysis of the deposited data

How the results depend on the processing

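Each count of called members was recomputed under 8 other settings (7 for the average over compounds) and without each library in turn. Under DMSO the count of 1 became 0 with FPKM, with scaling by the median of ratios, with voom on estimated reads and in a fit of only the groups compared, and 5 with GC correction. Under 2-CM the count of 29 became 17 with GC correction and 0 with no filter on low values, where the cause was not tested, and the split of 23 higher and 6 lower became 10 and 11 with scaling by the median of ratios. Under RES the count of 0 became 1 with no filter and 2 with GC correction. In the average over compounds the count of 20 became 9 with no filter, 2 higher and 7 lower, where the cause was not tested. Its split of 11 higher and 9 lower became 20 and 7 with FPKM and 19 and 7 with voom. It became 15 and 7 with median-of-ratios scaling. For RES against DMSO, the count of 0 with depc became 1 with GC correction, and the count of 2 in the average became 0 with FPKM, with median-of-ratios scaling, with voom and with only the groups compared, and 9 with GC correction. Without 1 library, the count ran from 0 to 1 under DMSO, from 0 to 36 under 2-CM, from 9 to 39 in the average over compounds and from 0 to 4 for RES against DMSO averaged over transfections. In the average over compounds it was 9 without replicate 2 of DMSO depc, replicate 1 of DMSO poly I:C, replicate 2 of 2-CM depc, either library of 2-CM poly I:C or replicate 2 of RES poly I:C, 11 and 12 without replicate 2 of RES depc and replicate 1 of 2-CM depc, and 31 and 39 without replicate 2 of DMSO poly I:C and replicate 1 of RES depc. The other counts, apart from 1 with a replicate block, kept to 0 or within 1.5 times. A log2 fold change changed sign for ORC1 under 2-CM (-0.0861 with median-of-ratios scaling), for RPA3 under 2-CM (-0.0298 with GC correction) and for E2F1 in the average over compounds (0.0167 with GC correction). Leaving a group with 1 library assumes that it varies like the others. The counts without 1 library are given without the share of all genes, so they do not set the members apart from other genes.

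The labels name nothing that same-numbered libraries share. Their deviations correlated at 0.153 to 0.761 in all 10 pairs among 5 groups and at -0.307 to -0.796 in the 5 pairs with RES poly I:C, so the numbers were not taken as pairs. Whether the numbers of RES poly I:C were exchanged cannot be settled from the labels, and an exchange would alter the fits with a block and which library carries which number, not the group values. With the replicate number as labelled as a block, 1 member was called under DMSO, 31 under 2-CM, 21 in the average over compounds and 1 in the RES average, where CHAF1A kept its call and RFC2 did not (adjusted p = 0.0531, limma). CCNE2, the member of lowest level, had 0.296 to 6.84 TPM. Whether depth kept members from passing was not tested.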
